A study of Mus musculus with 9 samples.

Results

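The mouse embryonic stem (ES) cell lines Bry and Hd2lox were compared by where chromatin immunoprecipitation followed by sequencing (ChIP-seq) called peaks of the histone deacetylases Hdac1 and Hdac2. Regions were chosen by merging the 4 peak lists wherever peaks overlapped by at least 1 bp, which gave 19419 regions from 33551 peaks, of 46202 peaks in the series' 6 lists. A region was called Bry-only when both Bry lists and no Hd2lox list held a peak there, and Hd2lox-only in the reverse case. There were 2718 Bry-only regions (14.0% of all regions), 811 Hd2lox-only regions (4.18%) and 1747 regions held by all 4 lists (9.00%). With either Hd2lox list left out, Hd2lox-only regions outnumbered Bry-only regions. With all 4 lists used, both kinds lay mainly at gene ends. Bry-only peaks were held by 30 of 86 cytosolic ribosomal protein genes and 10 of 25 immediate early genes, against 11.3% of all protein-coding genes. Of the genes in both Bry lists, 78.9% and 52.6% of these 2 groups were Bry-only, against 43.0% of all genes. Bry-only peaks were also held by 8 of 30 blood transcription factors, among them Meis1, Gfi1 and Lyl1. Only 4 of these 8 lay off chromosomes 8 and 11, where Bry peaks were crowded. Hd2lox-only peaks were held by 6 of 39 Hox genes, of which 0 were Bry-only, against 2.32% of all protein-coding genes. Foxd3 and Cdkn1c were among the highest ranked Hd2lox-only genes, and Gata2 was the 1 Hd2lox-only member of the 30 blood transcription factors.

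All 4 libraries came from haemogenic endothelium differentiated in culture from ES cells of strain C57BL/6, with no treatment. Bry cells had been passaged 16 to 19 times and Hd2lox cells 25 to 30 times, so line and passage cannot be told apart. Each line had 1 library with an Hdac1 antibody (Diagenode) and 1 with an Hdac2 antibody (abcam). The labels give no genotype for either line beyond its name. The peak list of the Hd2lox Hdac1 library is labelled Hd2loxlox and that of the Hdac2 library Hd2lox. Both sample titles read Hd2lox, so the 2 were taken as 1 line. The input libraries and the Hd1_loxlox line were not analysed here. The lists hold positions only, so the sequencing depth behind each list is unknown, and they give no expression with which to check the labelled cell type. With no replicate libraries, the smallest two-sided p that an exact permutation of 2 lists against 2 can give is 0.333, so no difference between the lines could pass the usual threshold.

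Hdac1 and Hdac2 are closely related class I deacetylases that remove acetyl groups from histone tails. They bind no DNA sequence themselves and are brought to chromatin within multiprotein complexes such as NuRD, Sin3 and CoREST. Peaks of these enzymes are commonly found at active promoters. Haemogenic endothelium is the endothelium from which blood cells emerge in the embryo through the endothelial-to-haematopoietic transition, a change of cell state in which signalling through transforming growth factor beta (TGF-beta) and the transcription factors Runx1, Gfi1 and Gata2 are known to take part.

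Promoter sequences show the kind of site each line held alone. The 3 highest ranked Bry-only genes and the 3 highest ranked Hd2lox-only genes, ranked by peak width, are shown whose promoter window lay under peaks of both lists of that line and under none of the other line. Each is the RefSeq window (GRCm38.p6) from 250 bases before to 50 bases after the gene's annotated start, written 5′ to 3′ on the gene's strand with CpG dinucleotides in capitals. The first 3, from Bry-only genes, lie at chr13:51846425-51846724 on the plus strand, chr4:134018767-134019066 on the minus strand and chr8:128358823-128359122 on the plus strand.

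Gadd45g: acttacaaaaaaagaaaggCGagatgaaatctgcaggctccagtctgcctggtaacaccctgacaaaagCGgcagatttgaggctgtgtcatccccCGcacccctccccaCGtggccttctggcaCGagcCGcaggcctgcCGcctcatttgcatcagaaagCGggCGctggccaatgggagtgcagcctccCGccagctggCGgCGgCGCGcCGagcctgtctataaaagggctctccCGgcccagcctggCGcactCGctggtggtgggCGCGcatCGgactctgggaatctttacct
Lin28a: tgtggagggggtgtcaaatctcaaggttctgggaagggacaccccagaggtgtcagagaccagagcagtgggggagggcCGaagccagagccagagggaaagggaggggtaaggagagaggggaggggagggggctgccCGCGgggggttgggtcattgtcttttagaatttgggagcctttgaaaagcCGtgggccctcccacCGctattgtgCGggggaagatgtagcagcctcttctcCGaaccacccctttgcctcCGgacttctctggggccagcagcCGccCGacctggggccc
Nrp1: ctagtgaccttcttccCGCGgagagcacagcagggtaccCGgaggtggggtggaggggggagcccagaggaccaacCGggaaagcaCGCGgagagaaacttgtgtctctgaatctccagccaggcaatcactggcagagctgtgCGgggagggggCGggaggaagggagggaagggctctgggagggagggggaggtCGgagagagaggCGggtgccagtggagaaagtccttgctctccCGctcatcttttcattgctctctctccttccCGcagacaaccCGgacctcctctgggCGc

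The 3 from Hd2lox-only genes lie at chr4:99656049-99656348 on the plus strand, chr17:69968823-69969122 on the plus strand and chr4:114908849-114909148 on the minus strand.

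Foxd3: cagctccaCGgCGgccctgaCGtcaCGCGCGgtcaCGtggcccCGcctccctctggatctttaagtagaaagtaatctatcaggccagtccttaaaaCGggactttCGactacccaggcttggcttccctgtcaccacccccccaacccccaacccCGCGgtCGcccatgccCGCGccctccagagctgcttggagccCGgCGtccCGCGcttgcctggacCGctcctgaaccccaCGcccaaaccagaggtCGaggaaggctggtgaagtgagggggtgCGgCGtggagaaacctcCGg
Dlgap1: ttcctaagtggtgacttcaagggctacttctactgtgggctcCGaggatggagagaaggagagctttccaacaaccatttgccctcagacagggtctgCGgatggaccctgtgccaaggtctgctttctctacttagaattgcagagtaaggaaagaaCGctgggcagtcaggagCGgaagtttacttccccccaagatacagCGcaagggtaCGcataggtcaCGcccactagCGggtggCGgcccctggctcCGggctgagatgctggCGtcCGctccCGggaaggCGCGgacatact
Foxd2: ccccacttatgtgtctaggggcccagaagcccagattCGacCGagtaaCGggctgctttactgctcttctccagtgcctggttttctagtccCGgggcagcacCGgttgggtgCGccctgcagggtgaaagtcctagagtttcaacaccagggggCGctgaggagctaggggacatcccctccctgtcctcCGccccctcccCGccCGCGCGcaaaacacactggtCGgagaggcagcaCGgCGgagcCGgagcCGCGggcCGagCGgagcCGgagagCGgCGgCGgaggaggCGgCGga

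Gadd45g, Lin28a and Nrp1 held 21, 10 and 14 CpG in 300 bases, and Foxd3, Dlgap1 and Foxd2 held 25, 15 and 26. Of the 26 in Foxd2, 18 lay in the last 100 bases, against 6 of the 10 in Lin28a. Lin28a and Nrp1, with 3.33 and 4.67 CpG per 100 bases, lay below the median of 7 over all Bry-only promoters.

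The lists themselves differed most in the Hd2lox Hdac2 library. Bry Hdac1 had 7671 peaks, Bry Hdac2 9279, Hd2lox Hdac1 7519 and Hd2lox Hdac2 9082. Their median widths were 1375, 1310, 1445 and 822 bp, so the Hd2lox Hdac2 peaks were narrow. The share of peaks within 1 kb of where a protein-coding gene is annotated to start or end, called a gene end here, was 77.5% in Bry Hdac1, 70.8% in Bry Hdac2, 63.9% in Hd2lox Hdac1 and 30.1% in Hd2lox Hdac2. Both Bry lists lay above both Hd2lox lists, at the smallest p the design allows (exact permutation p = 0.333, two-sided, adjusted 0.533 over 8 measures). The lists touched 6989, 7532, 5315 and 2946 genes at an end, again with no overlap between the lines (exact permutation p = 0.333). Because Hd2lox Hdac2 stood apart, the main counts are given without it as well. Without Hd2lox Hdac2 there were 2735 Bry-only and 2914 Hd2lox-only regions, so the order of the 2 classes reversed. Without Hd2lox Hdac1 it reversed too, with 4303 and 6596 regions, since 1 list then stood for Hd2lox.

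The 2 Bry lists resembled each other far more than the 2 Hd2lox lists did. Of the regions held by either Bry list, the fraction held by both (the Jaccard index) was 0.564, against 0.244 for Hd2lox. Between the lines, the index was 0.326 for the Hdac1 lists and 0.143 for the Hdac2 lists. It was 0.336 between Bry Hdac2 and Hd2lox Hdac1, and 0.133 between Bry Hdac1 and Hd2lox Hdac2, the pairs that share neither line nor antibody. Single lists held many regions alone: 5765 for Hd2lox Hdac2, of which 3.52% were at a gene end, 2252 for Bry Hdac2, 2103 for Hd2lox Hdac1 and 1153 for Bry Hdac1. Hd2lox Hdac2 peaks that coincided with a Bry peak nearly always coincided with an Hd2lox Hdac1 peak too, in 2438 of 2472 such regions (98.6%).

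**Figure D1:**
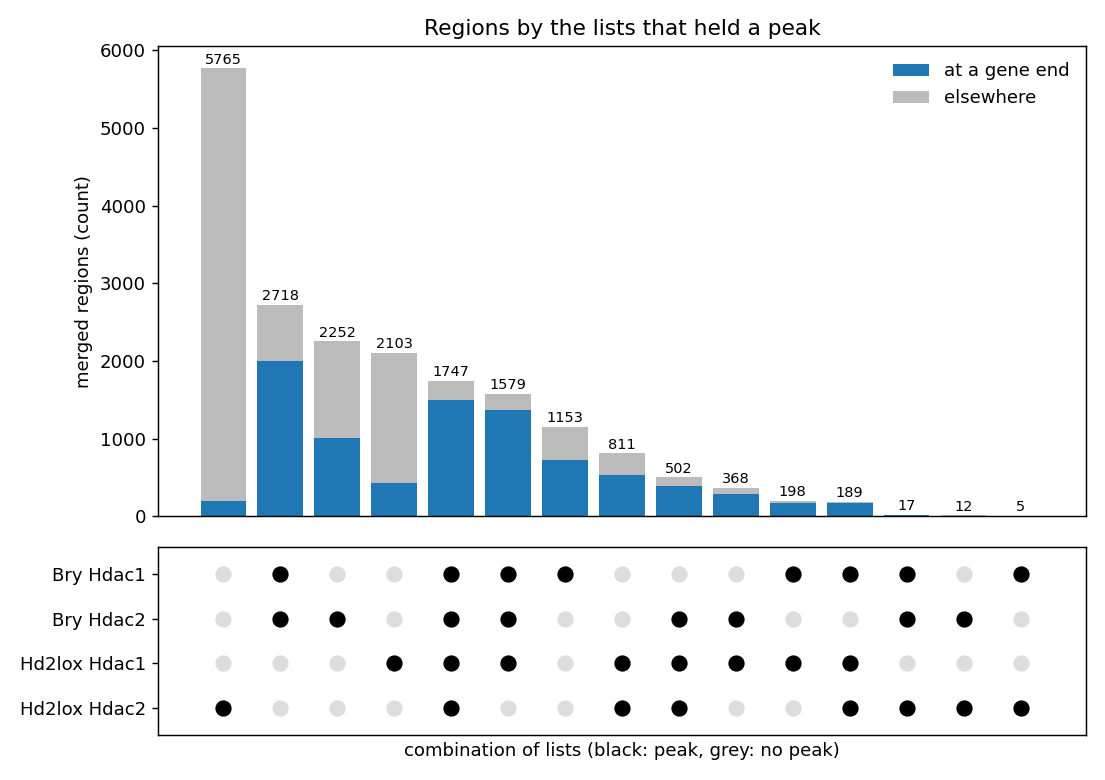
Number of merged regions (vertical axis) for each combination of the 4 lists (dots under each bar, black where the list held a peak), split by whether the region lay within 1 kb of an end of a protein-coding gene (blue) or elsewhere (grey). The 5765 regions of Hd2lox Hdac2 alone are almost all grey, while the 2718 Bry-only regions and the 1747 regions of all 4 lists are mostly blue.

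Read from each line's shared regions, the lines held part of their peaks in common. Of the 6061 regions in both Bry lists, 54.9% also held an Hd2lox Hdac1 peak, 29.1% an Hd2lox Hdac2 peak and 44.8% neither. Of the 3249 regions in both Hd2lox lists, 59.6% held a Bry Hdac1 peak, 69.2% a Bry Hdac2 peak and 25.0% neither. Few line-specific regions lay close to a peak of the other line. The median distance to the nearest peak of the other line was 35.8 kb for Bry-only regions and 55.4 kb for Hd2lox-only regions, and 44 and 16 of them lay within 1 kb of one. Just outside the rule, 1 of 3343 regions held by both Bry lists and an Hd2lox list, and 3 of 2438 regions held by both Hd2lox lists and a Bry list, overlapped the other line by 100 bp or less.

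Line-specific regions of both lines lay mainly at gene ends. Of Bry-only regions, 73.7% lay at a gene end (95% Wilson interval 72.0 to 75.3%, counting error only), against 65.1% of Hd2lox-only regions (61.8 to 68.3%) and 85.7% of regions in all 4 lists (84.0 to 87.3%). Within 1 kb of a known gene start lay 63.1%, 49.7% and 73.8% of them. The order of the first 2 depended on which lists were used. The difference of 8.59 percentage points became -9.57 without Bry Hdac1 and -0.36 without Bry Hdac2, and 67.3 without Hd2lox Hdac1 and 40.7 without Hd2lox Hdac2, since a single list then stood for its line. Hd2lox-only regions lay more often inside a gene away from its ends, in 24.3% against 14.9% of Bry-only regions, and the shares outside genes were 10.6% and 11.4%. Median region width was 1530 bp for Bry-only, 1334 bp for Hd2lox-only and 2048 bp for regions in all 4 lists.

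Bry-only regions sat at the ends of neighbouring genes more often than the other classes did. Among those at a gene end, 29.0% lay at the ends of 2 or more protein-coding genes, against 6.82% of Hd2lox-only regions and 13.9% of regions in all 4 lists. Cyb5d1 and Naa38 on chromosome 11 are an example, with gene starts and ends at 69390930 to 69395727 and 69395791 to 69396671. Their 1 shared region had peaks of 3950 bp (Bry Hdac1) and 4313 bp (Bry Hdac2) and none in either Hd2lox list. Such a region names both genes, and the peak lists do not say to which it belongs.

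Counted by gene, 2473 of 21887 protein-coding genes had an end peak in both Bry lists and in no Hd2lox list (11.3%), 507 had the reverse pattern (2.32%) and 1642 had an end peak in all 4 lists (7.50%). These percentages are the background for every gene group below, and the median gene had an end peak in 0 of the 4 lists. Where RefSeq gives the gene's start, the peak lay at the start in 93.2% of Bry-only, 87.7% of Hd2lox-only and 91.3% of all-4 genes. Hd2lox-only genes were longer than Bry-only genes, with medians of 31.5 and 18.2 kb against 17.2 kb over all genes. Genes in all 4 lists were longer still, with a median of 36.6 kb. Without Hd2lox Hdac2, the counts became 2507 Bry-only and 939 Hd2lox-only genes. At 26 of the Bry-only and 6 of the Hd2lox-only genes the peaks of the 2 lists did not overlap each other. A line-specific gene was not always free of the other line's peaks, since 13.5% of Bry-only and 10.7% of Hd2lox-only genes held such a peak elsewhere in the gene body.

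Bry-only genes were ranked by the width of their peaks. Dusp4, a phosphatase that inactivates MAP kinases (chromosome 8, 34807610 to 34819894), had peaks of 5489 bp in Bry Hdac1 and 5595 bp in Bry Hdac2, and the nearest Hd2lox peak lay 32194 bp away. Gadd45g, a stress-induced growth arrest gene, had peaks of 5262 and 6130 bp, the latter being the widest peak of the Bry Hdac2 list. Lin28a, an RNA-binding protein of pluripotent and early embryonic cells, had peaks of 3931 and 4962 bp. Of these 6 peaks the Lin28a peak of 3931 bp ranked lowest, at percentile 99.5 of the widths of its list.

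Nrp1, a co-receptor for vascular endothelial growth factor and semaphorins, had Bry peaks of 3614 and 3694 bp, and the nearest Hd2lox peak was 180464 bp away. Junb, an AP-1 transcription factor, had Bry peaks of 4233 and 3370 bp, and Tbx3, a T-box factor, 3358 and 3326 bp. Arid3a, a DNA-binding regulator of B cell and haematopoietic genes, shared peaks of 3981 and 4098 bp with the far end of its neighbour Kiss1r. Pfn1, an actin-binding protein, and Jade2, a chromatin reader, complete the 12 highest ranked together with Cyb5d1 and Naa38, and had Bry peaks of 3563 and 3467 bp and of 3273 and 3876 bp. Jade2 and Pfn1 are weaker cases. Within Jade2 both Hd2lox lists held a peak away from the gene ends, and for Pfn1 an Hd2lox Hdac1 peak covered an annotated start inside the gene, so that Pfn1 was line-specific only at its outer ends.

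The Hd2lox-only genes were ranked in the same way. Foxd3, a forkhead factor of neural crest and pluripotent cells, had peaks of 3888 bp in Hd2lox Hdac1 and 1975 bp in Hd2lox Hdac2, with the nearest Bry peak 56851 bp away. Cdkn1c, an imprinted inhibitor of cyclin-dependent kinases, had peaks of 3645 and 2795 bp. The forkhead genes Foxe1 (2751 and 1706 bp) and Foxd2 (2446 and 1555 bp) were also among the highest ranked. Pou3f3, a POU-domain factor of the brain, had peaks of 2918 and 1683 bp, and Dmrta2, a cortical patterning gene, 3129 and 1223 bp. These 2 peaks of Dmrta2 did not overlap, and a second, narrower Hdac1 peak overlapped the Hdac2 peak.

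Kcnc4, a voltage-gated potassium channel (3204 and 1384 bp), Wnt2b, a Wnt ligand (3130 and 1178 bp), and Asmt, the last enzyme of melatonin synthesis (4172 and 2386 bp), followed the same pattern. Cnnm1 (2838 and 1751 bp) and Dlgap1, a postsynaptic scaffold (2687 and 1444 bp), did so too. For Asmt, Cnnm1, Dlgap1 and Pou3f3 a Bry peak lay elsewhere in the gene, and for Cnnm1 it covered an annotated start inside the gene, so that gene was line-specific only at its outer ends. At each of these named genes the Hd2lox Hdac2 peak was narrower than the Hdac1 peak, as the whole list was.

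The 5 highest ranked regions away from gene ends were named for each line. Bry-only regions of this kind lay inside Kdm6b, a histone H3 lysine demethylase (3880 and 3307 bp), inside Pcgf2, a Polycomb subunit (3250 and 2713 bp), and at the Mir22 host gene (3202 and 2707 bp). Further ones lay inside Dcun1d4 and 2131 bp from Bcl9l, a co-activator of Wnt signalling. Hd2lox-only regions of this kind lay inside Lmtk3, Begain, Siglec15, Rbfox3 and Ptprd, of which Begain and Rbfox3 are neuronal genes and Ptprd is a neuronal receptor phosphatase. The Rbfox3 region had peaks of 2121 and 1632 bp, and the Ptprd region 2622 and 981 bp. The regions in Pcgf2, Dcun1d4 and Begain covered an annotated start inside the gene, so they lay away from its outer ends only.

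Genes held by all 4 lists gave a reference for width. Nsd1, a histone H3 lysine methyltransferase, had peaks of 3445, 3484, 3215 and 2889 bp in Bry Hdac1, Bry Hdac2, Hd2lox Hdac1 and Hd2lox Hdac2. Smad7, the inhibitory Smad of TGF-beta signalling, had peaks of 5406, 3969, 5378 and 1425 bp. Over whole classes, peaks in all 4 lists were wider than line-specific ones, with medians of 1539 against 1318 bp in Bry Hdac1, 1576 against 1300 bp in Bry Hdac2 and 1614 against 1312 bp in Hd2lox Hdac1. In Hd2lox Hdac2 the medians were close, at 903 and 896 bp. A wider peak is also more likely to overlap another list, and how much of this difference comes from that was not tested.

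Genes of the translation machinery were held by the Bry lists more often than by the Hd2lox lists. Of 86 cytosolic ribosomal protein genes, 30 were Bry-only, 1 (Rps3a1) was Hd2lox-only and 3 were held by all 4 lists. The separate lists held 55, 40, 14 and 6 of them, in the order Bry Hdac1, Bry Hdac2, Hd2lox Hdac1 and Hd2lox Hdac2. The first list was drawn up by the Rps and Rpl symbols alone, and its 98 genes, of which 30 were also Bry-only, took in S6 kinase genes, Rps19bp1 and Rps23rg1, which were left out after seeing the data. Of 78 mitochondrial ribosomal protein genes, 26 were Bry-only, 0 were Hd2lox-only and 1 was in all 4, and the lists held 41, 42, 8 and 1. Of 35 translation initiation factors, 11 were Bry-only and 1 Hd2lox-only. Of 34 aminoacyl-tRNA synthetase genes, a family examined after the classes had been seen, 10 were Bry-only and 0 Hd2lox-only.

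Other complexes that every cell uses followed the same order. Of 31 proteasome genes 10 were Bry-only and 0 Hd2lox-only, with 22, 19, 4 and 2 held by the separate lists. Of 30 splicing factor genes 9 were Bry-only and 0 Hd2lox-only, and of 87 oxidative phosphorylation genes 15 and 0. Among families examined after the classes had been seen, 11 of 28 RNA polymerase subunit genes, 9 of 21 nucleoporin genes, 8 of 22 tubulin and gamma-tubulin complex genes and 7 of 10 genes of the chaperonin CCT were Bry-only, and 0 of any of these was Hd2lox-only. Not every such family was so divided. Of 37 ubiquitin-conjugating enzyme genes, 2 were Bry-only and 13 were held by all 4 lists.

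Immediate early genes, which are switched on within minutes of a growth signal, were one of the groups with the largest Bry-only share. Of 25 genes, 10 were Bry-only, 1 was Hd2lox-only and 4 were in all 4 lists, and the separate lists held 20, 23, 13 and 6. All 25 had an end peak in some list. Of the 19 in both Bry lists, 52.6% were Bry-only, against 43.0% of all genes in both Bry lists. Fos had peaks of 1685 and 1158 bp in the 2 Bry lists, Fosb 2349 and 1064 bp, Ier2 3592 and 1866 bp, and Dusp6, another MAP kinase phosphatase, 2906 and 3064 bp. Atf3, Fosl1, Ier3, Zfp36, Zfp36l1 and Junb were the other Bry-only members. Nr4a1, an orphan nuclear receptor, was Hd2lox-only with 1725 and 764 bp, and Jund, Dusp2, Dusp5 and Ier5 were held by all 4.

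The p53 pathway showed the same division. Of 20 genes, 9 were Bry-only, 1 (Ei24) was Hd2lox-only and 0 were in all 4 lists. Trp53 itself, which encodes p53, had peaks of 3418 and 1446 bp in Bry, and Mdm2, the ligase that degrades p53, 1644 and 972 bp. The growth arrest genes Gadd45a (1797 and 1622 bp), Gadd45b (2224 and 2504 bp) and Gadd45g were all Bry-only, as were Btg2, Sesn1, Sesn2 and Aen. Of 20 unfolded protein and stress response genes, 5 were Bry-only, including the stress transcription factor Ddit3 (3987 and 1963 bp), and 0 were Hd2lox-only. Of 35 cell cycle genes, 7 were Bry-only, including Myc (3075 and 5142 bp), and 1 was Hd2lox-only, the inhibitor Cdkn1c.

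The median number of lists with an end peak was 1.5 for cytosolic ribosomal protein genes, 1 for mitochondrial ribosomal protein genes and for proteasome genes, and 2 for immediate early, p53 pathway and splicing factor genes, against 0 over all genes. Shares were therefore also taken among genes in both Bry lists, of which 43.0% were Bry-only over all genes. By this measure, 78.9% of cytosolic ribosomal, 81.25% of mitochondrial ribosomal, 66.7% of proteasome and 81.8% of p53 pathway genes were Bry-only. Translation initiation factors stood at 50%, splicing factor genes at 39.1% and cell cycle genes at 28%, near or below all genes. Of 397 Zfp genes 43 were Bry-only and 4 Hd2lox-only, and of 62 replication-dependent histone genes 8 and 0, both near the 11.3% of all genes for Bry-only. Of 1110 olfactory receptor genes 0 were Bry-only and 1 was Hd2lox-only, and of 57 protocadherin cluster genes 1 and 0.

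**Figure D2:**
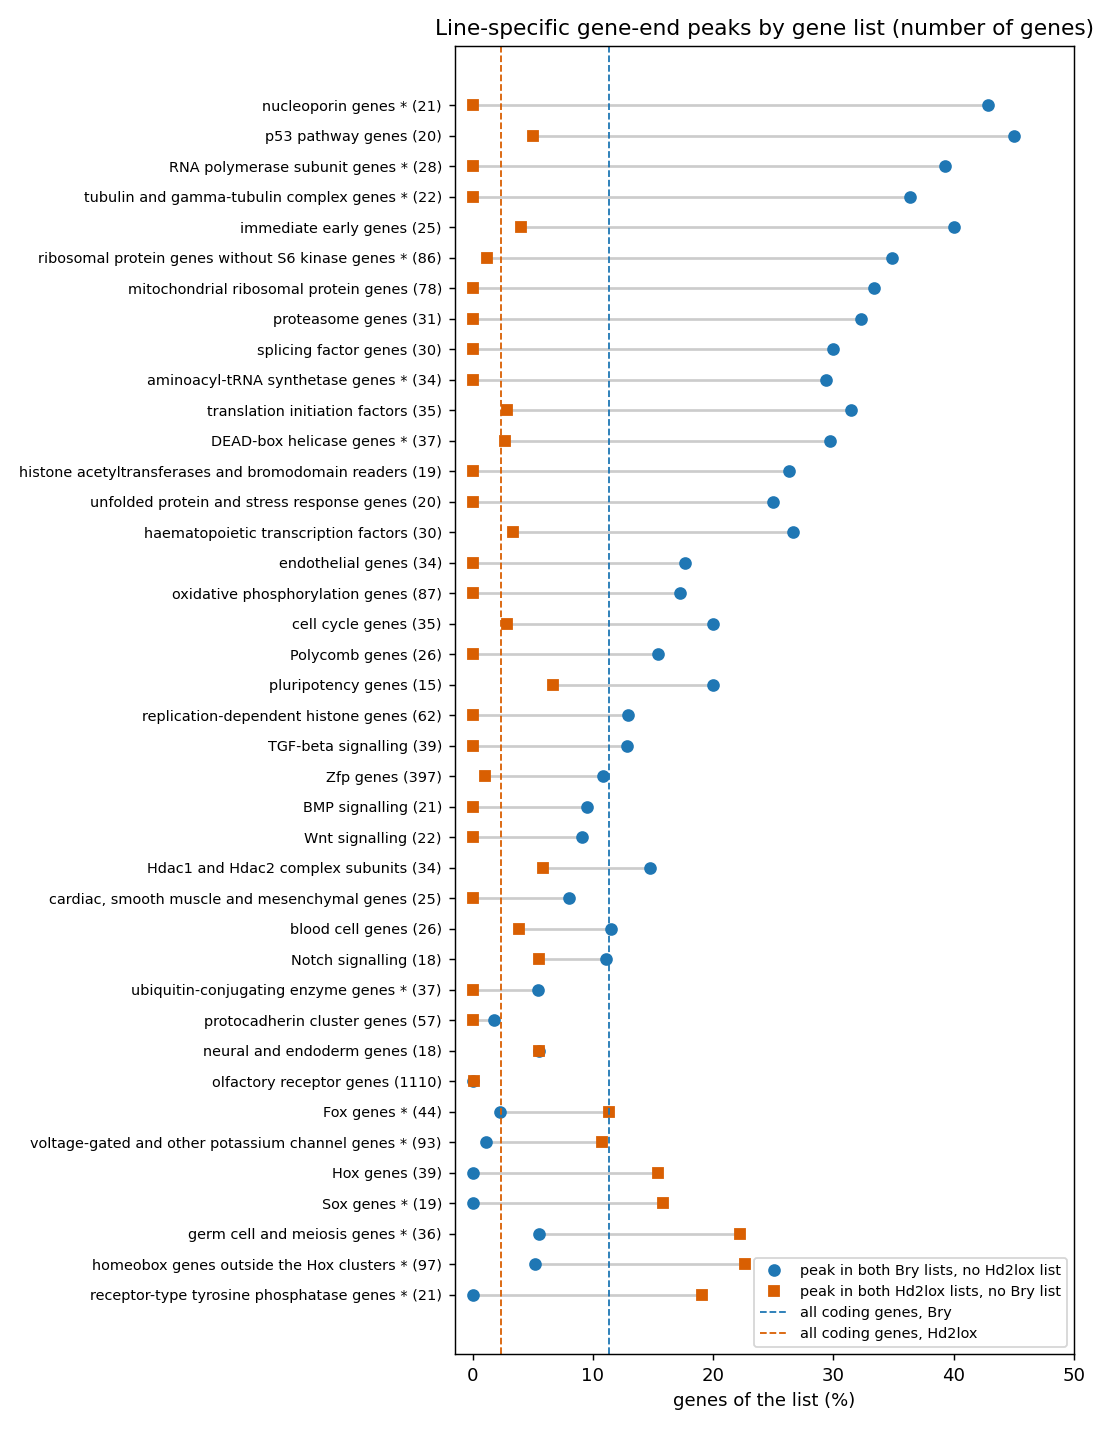
Percentage of the genes of each list (number of genes in parentheses, lists of 15 or more genes) with an end peak in both Bry lists and no Hd2lox list (blue circles) or the reverse (orange squares), with dashed lines for all protein-coding genes at 11.3% and 2.32%. Lists marked with an asterisk were added after the classes had been seen. Blue circles of the ribosomal, proteasome, immediate early and p53 lists lie to the right of the blue line, and Hox, homeobox, Fox, Sox and potassium channel lists have orange squares to the right of the orange line.

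More TGF-beta signalling genes were held by all 4 lists than by 1 line alone. Of 39 genes, 8 were held by all 4 lists, 5 were Bry-only and 0 were Hd2lox-only, and the separate lists held 24, 27, 22 and 10. The Bry-only share of 12.8% was near the 11.3% of all genes. The ligand Tgfb1 had peaks of 3525, 3755, 1256 and 844 bp, and the receptor Tgfbr1 2291, 1988, 1316 and 803 bp. The receptor Tgfbr2 and the signal transducer Smad3 were missing from Hd2lox Hdac2 only, with 1663, 2244 and 1356 bp for Tgfbr2. Bry-only members were the co-receptor Tgfbr3 (1786 and 1106 bp), the pseudoreceptor Bambi (2511 and 1559 bp), the co-repressor Tgif1 (4939 and 2987 bp) and the targets Fn1 (1956 and 2053 bp) and Ccn2 (965 and 1121 bp). In the BMP, Notch and Wnt lists, 2 genes each were Bry-only and 4, 8 and 8 were in all 4 lists. Their Bry-only shares of 9.52%, 11.1% and 9.09% were also near that of all genes.

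Transcription factors of the blood programme were Bry-only more often than Hd2lox-only, as genes in general were. Of 30 genes, 8 were Bry-only, 1 was Hd2lox-only and 5 were in all 4 lists, with 18, 21, 13 and 6 in the separate lists. Of the 18 in both Bry lists, 44.4% were Bry-only, near the 43.0% of all genes in both Bry lists. Meis1, a homeodomain cofactor of Hox proteins, had Bry peaks of 3251 and 3196 bp. Gfi1, a repressor that acts in the endothelial-to-haematopoietic transition, had 1622 and 3590 bp, and Lyl1, a bHLH factor of blood stem cells, 2357 and 3886 bp. Fli1, an ETS factor of endothelium and blood, had 3900 and 1428 bp, and Bcl11a, Nfe2 and Klf1 were also Bry-only.

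Gata2, a zinc finger factor required for blood stem cells, was the 1 Hd2lox-only member, with peaks of 2114 and 809 bp. The peak of 809 bp was narrower than the median of 822 bp of the Hd2lox Hdac2 list. The Hd2lox-only share of 3.33% was near the 2.32% of all genes. Tal1, a master regulator of blood formation, was missing from Hd2lox Hdac2 only (2146, 1343 and 1532 bp), and Gfi1b was in Bry Hdac2 only (2025 bp). Runx1, which is required for the endothelial-to-haematopoietic transition, had no peak at either gene end in any of the 4 lists. Of the 8 Bry-only factors, 4 lay off chromosomes 8 and 11, where Bry peaks were crowded as described below, and there 4 of 23 factors were Bry-only (17.4%) against 10.1% of all genes off those chromosomes. The numbers are small, and the Hd2lox lists held fewer gene ends in general.

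Endothelial genes followed. Of 34, 6 were Bry-only, 0 Hd2lox-only and 5 in all 4 lists. Kdr, a receptor for vascular endothelial growth factor, had Bry peaks of 1446 and 1701 bp, Pecam1, an endothelial adhesion molecule, 1936 and 1263 bp, and Nos3, endothelial nitric oxide synthase, 1088 and 1077 bp. Nrp2 and Plvap were Bry-only along with Nrp1. Efnb2, Klf2, Klf4, Ets2 and Rasip1 were in all 4 lists. Off chromosomes 8 and 11, 3 of 25 genes were Bry-only, near the 10.1% of all genes there.

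Few markers of later blood cells had an end peak. Of 26 blood cell genes, the lists held 3, 3, 1 and 1. Kit (1977 and 2080 bp), Itga2b (1466 and 1541 bp) and Itgb3 (2025 and 1482 bp), all of early haematopoietic or megakaryocytic cells, were Bry-only, and Gp1bb was Hd2lox-only. The Bry-only share of 11.5% was near the 11.3% of all genes. Off chromosomes 8 and 11, 1 of 20 blood cell genes was Bry-only (5%), against 10.1% of all genes there. Of 25 cardiac, smooth muscle and mesenchymal genes 2 were Bry-only and 0 Hd2lox-only, and of 18 neural and endoderm genes 1 and 1. The separate lists held 4, 7, 7 and 4 of the neural and endoderm genes, so the 2 Hd2lox lists held 38.9% and 22.2% of them against 24.3% and 13.5% of all genes. Bry Hdac1 and Bry Hdac2 held 22.2% and 38.9% of them, against 31.9% and 34.4% of all genes. Of 15 pluripotency genes 3 were Bry-only (Sall4, Lin28a and Tbx3) and 1 was Hd2lox-only (Sox2, 1204 and 811 bp). Positions of peaks do not give the share of such cells in either culture.

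Developmental regulators showed the opposite order. Of 39 Hox genes, which set position along the body axis, 6 were Hd2lox-only, 0 were Bry-only and 1 (Hoxd8) was in all 4 lists, and the separate lists held 1, 4, 14 and 8. Hoxd10 had peaks of 2029 and 1772 bp in the 2 Hd2lox lists, Hoxd13 2150 and 1052 bp, and Hoxc13 1797 and 1490 bp. Hoxb4, Hoxb9 and Hoxa4 were the other members. Without Hd2lox Hdac2, 10 Hox genes were held by Hd2lox and not by Bry, and elsewhere the Hd2lox-only counts rose from 1 to 3 for cytosolic ribosomal protein genes, from 22 to 27 for the homeobox list below, from 10 to 12 for potassium channels, from 4 to 6 for receptor phosphatases and from 1 to 2 for translation initiation factors. Other lists rose too, such as Zfp genes from 4 to 8. Over all genes the count rose from 507 to 939, in proportion more than for the Hox genes. Genes of 1 Hox cluster are neighbours, so they are not separate observations.

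Homeobox genes outside the Hox clusters, with all Pax and Pou genes, a family examined after the classes had been seen, were divided in the same way. Of 97 genes, 22 were Hd2lox-only, 5 were Bry-only and 6 were in all 4 lists, and the separate lists held 17, 30, 49 and 43. Members included Nkx2-1 (2342 and 781 bp), a factor of lung, thyroid and forebrain, Nkx2-4 (2390 and 1959 bp), En1 (2048 and 1419 bp), a midbrain and limb factor, and Nkx6-1 (2748 and 882 bp), a factor of pancreas and spinal cord. Gbx1, Lmx1b, Mnx1, Pou4f2, Tlx1, Tlx2, Tlx3 and Uncx were among the others. Bry-only members included Pou4f3, Vax1, Lhx3 and Nkx1-2.

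Of 44 Fox genes, also examined afterwards, 5 were Hd2lox-only, 1 (Foxp2) was Bry-only and 15 were in all 4 lists. Of the 24 Fox genes in both Hd2lox lists, 20.8% were Hd2lox-only, near the 18.5% of all genes in both Hd2lox lists. The same share was 75% for Hox genes and 56.4% for the other homeobox genes. Foxc2, a factor of lymphatic and vascular development, had peaks of 1233 and 2141 bp in Bry and 2611 and 2177 bp in Hd2lox. Of 19 Sox genes 3 were Hd2lox-only (Sox2, Sox3 and Sox5) and 0 Bry-only. Of 93 potassium channel and channel-associated genes 10 were Hd2lox-only and 1 Bry-only, and of 21 receptor-type tyrosine phosphatase genes, with the associated protein Ptprcap among them, 4 and 0.

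A list of 36 germ cell and meiosis genes, drawn up after some of its members had been seen among the Hd2lox-only genes, held 8 Hd2lox-only and 2 Bry-only genes, and its counts are therefore a description only. Ddx4, the germ cell RNA helicase Vasa, had Hd2lox peaks of 1085 and 993 bp. Dazl, an RNA-binding protein of germ cells, had 2107 and 1549 bp, and Sycp1, a component of the synaptonemal complex, 921 and 1216 bp. Mael, Tdrd5, Tex12, Hfm1 and Msh4 were the others, and the Bry-only members were Tex14 and Msh5. The separate lists held 3, 4, 10 and 12 of the 36.

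Genes for the Hdac complexes themselves had end peaks in a median of 3 of the 4 lists. Of 34 subunit genes 8 were in all 4 lists, 5 were Bry-only and 2 were Hd2lox-only, and the lists held 28, 24, 22 and 13. Within NuRD, Chd4, Mta2 and Rbbp4 were Bry-only, with 1922 and 1580 bp for the remodeller Chd4, whereas its relative Chd3 (2485 and 979 bp) and Mta1 (1655 and 779 bp) were Hd2lox-only. The scaffold genes Sin3a (2963 and 2550 bp) and Sin3b (973 and 951 bp) were Bry-only. Hdac2 had end peaks in 3 lists (2302, 1456 and 2187 bp, none in Hd2lox Hdac2), and Hdac1 had 1 in Bry Hdac2 only (2123 bp). Of 19 histone acetyltransferase and bromodomain genes 5 were Bry-only, including Brd2 (3179 and 4212 bp), and 0 Hd2lox-only, and of 26 Polycomb genes 4 and 0.

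Promoter composition separated the classes. Of genes off chromosome 18, for which the promoter table holds no windows, 82.8% of Bry-only, 80.2% of Hd2lox-only and 80.9% of all-4 genes had a window, 2001, 396 and 1287 promoters. Median CpG per 100 bases was 7 in Bry-only, 8.5 in Hd2lox-only and 10 in all-4 promoters, against 4.33 over all 17490 promoters. Class membership moved with CpG content in different ways. The Bry-only share of promoters was 1.15% below 2 CpG per 100 bases, 23.5% between 8 and 10, and 6.49% at 12 or more. The Hd2lox-only share rose from 0.42% to 6.72% and the all-4 share from 0.96% to 29.6% over the same range. At 12 or more CpG per 100 bases, Hd2lox Hdac1 held 82.7% of genes, above Bry Hdac1 at 69.3% and Bry Hdac2 at 76.7%, while Hd2lox Hdac2 held 46.0%, below both. Between 6 and 8, Hd2lox Hdac1 held 26.5% against 49.6% and 52.7%.

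**Figure D3:**
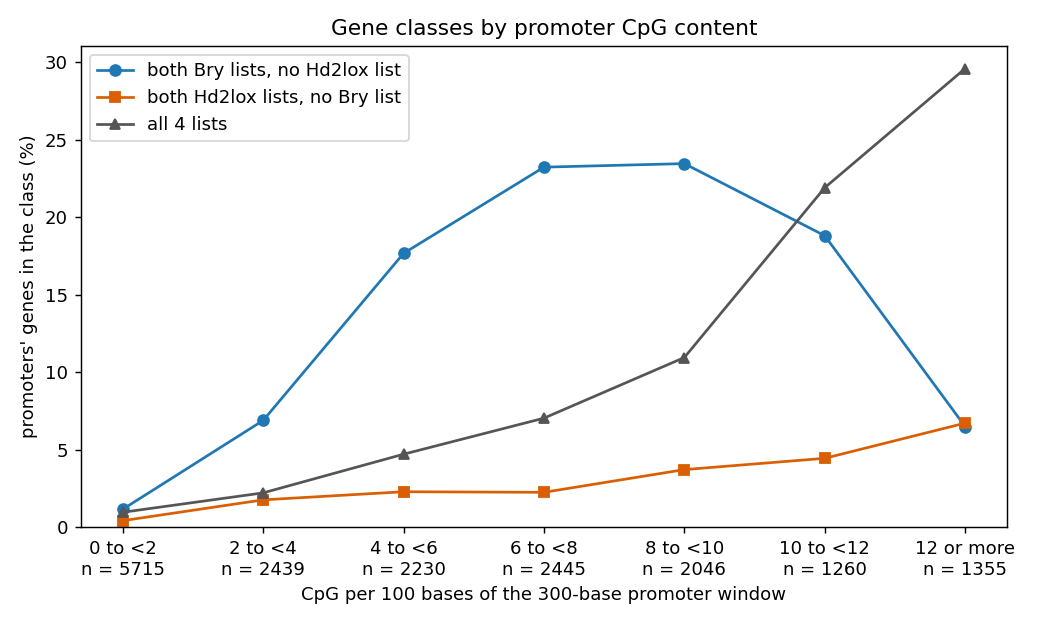
Percentage of genes in each class (vertical axis) by the number of CpG per 100 bases in the 300-base promoter window (horizontal axis, with the number of promoters per bin). The Bry-only share is highest at 23.5% between 8 and 10 CpG per 100 bases and falls to 6.49% at 12 or more, while the shares of Hd2lox-only and all-4 genes are highest in that last bin, at 6.72% and 29.6%.

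The letters CCGGAAG, the core that ETS family factors such as GABPA recognise, were most frequent in Bry-only promoters. On either strand of the 300-base window they occurred in 26.4% of Bry-only promoters (529 of 2001, Wilson interval 24.6 to 28.4%), 6.82% of Hd2lox-only promoters (27 of 396, 4.73 to 9.74%) and 13.8% of all-4 promoters, against 11.9% of all promoters. Bry-only promoters lay above Hd2lox-only promoters in each range of CpG content from 2 per 100 bases up. Between 2 and 6 CpG per 100 bases the shares were 19.9% and 6.38%, between 6 and 10 they were 29.9% and 9.92%, and at 10 or more 32.0% and 5.44%, in Bry-only and Hd2lox-only promoters. Below 2, where 5715 of the 17490 promoters lie, 0 of 66 Bry-only promoters (Wilson interval up to 5.50%) and 0 of 24 Hd2lox-only promoters (up to 13.8%) held the letters, too few to compare. The all-4 promoters lay below all promoters in each range from 2 up, at 8.81%, 16.2% and 14.6% against 12.1%, 21.7% and 17.7%. Intervals cover counting error only, and promoters are not replicates of a line. Leaving out any 1 list, chromosomes 8 and 11, or the narrower peaks left a difference of between 14.8 and 20.1 percentage points, against 19.6 with all data.

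**Figure D4:**
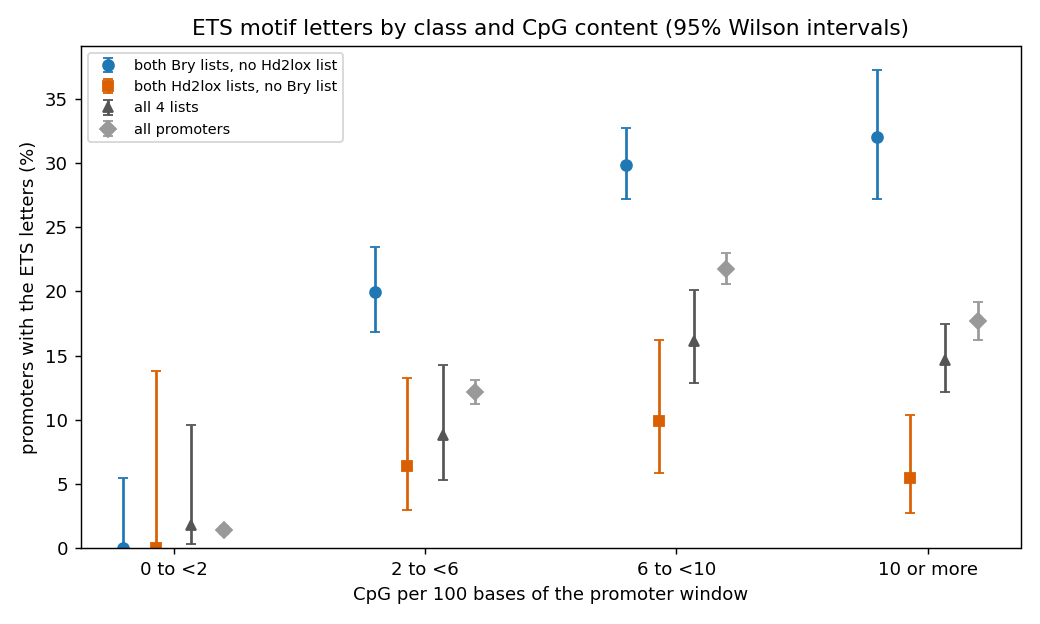
Percentage of promoters with the ETS letters on either strand (points, with 95% Wilson intervals) in 4 ranges of CpG content, for Bry-only, Hd2lox-only, all-4 and all promoters. From 2 CpG per 100 bases up, Bry-only promoters lie highest in each range, from 19.9% to 32.0%, and Hd2lox-only promoters lowest, from 5.44% to 9.92%, while below 2 both are at 0%.

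Stretches of 100 bases from Bry-only genes of 4 lists show these letters in place, in capitals, as CCGGAAG or as its reverse complement CTTCCGG. The highest ranked gene of each list was taken whose window held the letters and lay under both Bry peaks. They lie at chr9:44407595-44407694 on the plus strand, chr17:12916242-12916341 on the minus strand, chr16:20651580-20651679 on the plus strand and chr3:158036657-158036756 on the minus strand (GRCm38.p6, RefSeq).

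Rps25: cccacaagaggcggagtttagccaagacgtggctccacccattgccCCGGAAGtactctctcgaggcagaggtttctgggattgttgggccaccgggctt
Mrpl18: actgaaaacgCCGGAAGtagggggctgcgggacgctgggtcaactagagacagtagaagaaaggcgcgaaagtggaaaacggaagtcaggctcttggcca
Psmd2: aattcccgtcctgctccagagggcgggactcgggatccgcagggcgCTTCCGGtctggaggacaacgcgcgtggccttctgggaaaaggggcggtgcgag
Srsf11: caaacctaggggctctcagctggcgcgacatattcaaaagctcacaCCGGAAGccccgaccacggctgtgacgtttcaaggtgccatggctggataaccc

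Rps25, of the small ribosomal subunit, had Bry peaks of 1908 and 2009 bp, Mrpl18, of the mitochondrial ribosome, 1671 and 2008 bp, the proteasome subunit Psmd2 956 and 996 bp, and the splicing factor Srsf11 1271 and 1226 bp. Of the Bry-only cytosolic ribosomal protein genes with a promoter window, 9 of 23 held the letters, as did 10 of 23 mitochondrial ribosomal, 1 of 5 proteasome and 3 of 9 splicing factor genes. A match is a run of letters and not a bound site.

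The other motifs searched differed less, as a ratio, between Bry-only and Hd2lox-only promoters. The NRF1 letters GCATGCGC occurred in 6.20% of Bry-only, 2.53% of Hd2lox-only and 5.44% of all-4 promoters, against 3.61% of all promoters. The NFY letters CCAAT occurred in 41.7%, 26.0% and 33.4%, against 39.2% of all. The SP letters GGGCGG occurred in 67.0%, 70.5% and 77.6%, against 46.3% of all, and did not favour Bry-only promoters. The YY1 letters ATGGCGGC occurred in 5.30%, 2.53% and 6.99%, against 3.21% of all. Letters of factors of the blood programme were close in both classes. The RUNX letters TGTGGT occurred in 11.6% of Bry-only and 10.6% of Hd2lox-only promoters and the GATA letters AGATAA in 5.25% and 3.79%, against 15.1% and 9.94% of all promoters. The AP-1 letters TGANTCA (4.40% and 4.29%), the E-box CANNTG (59.1% and 61.1%), the TATA letters TATAAA (6.70% and 4.55%) and the SMAD half-site CAGAC (46.7% and 48.2%) were also close. The full SMAD site GTCTAGAC was rare, in 0.30% and 0% of them, and allows no comparison.

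Some chromosomes held more of the Bry peaks than of the Hd2lox peaks. Chromosome 8 held 8.43% of Bry Hdac1 and 8.63% of Bry Hdac2 peaks, against 5.65% of Hd2lox Hdac1 and 5.21% of Hd2lox Hdac2 peaks. Chromosome 11 held 10.1% and 9.54% against 7.42% and 6.47%. The differences of 3.10 and 2.85 percentage points between line means exceeded the gap between the 2 lists of a line. Both chromosomes were singled out from all chromosomes by these same values. The exact permutation p of 0.333 (adjusted 0.533 over 8 measures), the smallest that the design allows, therefore gives them no support. In all, 6 chromosomes were higher in both Bry lists (8, 11, 14, 16, 19 and Y), with chromosome 16 only slightly so. Another 9 were higher in both Hd2lox lists, among them 3, 6 and X, and on 6 the lines overlapped. Separation of the lines on a chromosome was thus common.

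The same 2 chromosomes stood out among line-specific regions. Chromosome 8 held 294 Bry-only regions (10.8% of them) and 18 Hd2lox-only regions (2.22%), and chromosome 11 held 326 and 54. By gene, 226 of the 1043 protein-coding genes of chromosome 8 were Bry-only (21.7%) and 6 Hd2lox-only, and on chromosome 11 302 of 1609 (18.8%) and 31, against 11.3% and 2.32% of all genes. Of the highest ranked Bry-only genes named above, Dusp4, Nrp1 and Junb lie on chromosome 8, and Cyb5d1, Naa38, Pfn1 and Jade2 on chromosome 11. Gadd45g, Arid3a, Kiss1r, Lin28a and Tbx3 lie elsewhere. The named Bry-only regions at Kdm6b, Pcgf2 and the Mir22 host gene are on chromosome 11 too, while those at Dcun1d4 and Bcl9l are not. Other named Bry-only genes there include Lyl1, Klf1, Plvap and Ier2 on chromosome 8, and Meis1, Bcl11a, Pecam1, Itga2b, Itgb3 and Trp53 on chromosome 11. Without both chromosomes, 2098 Bry-only and 739 Hd2lox-only regions and 1945 and 470 genes were left, and the Bry-only shares of cytosolic ribosomal (23 of 77), mitochondrial ribosomal (21 of 65), proteasome (7 of 24) and immediate early genes (8 of 22) stayed above the 10.1% of all genes there.

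**Figure D5:**
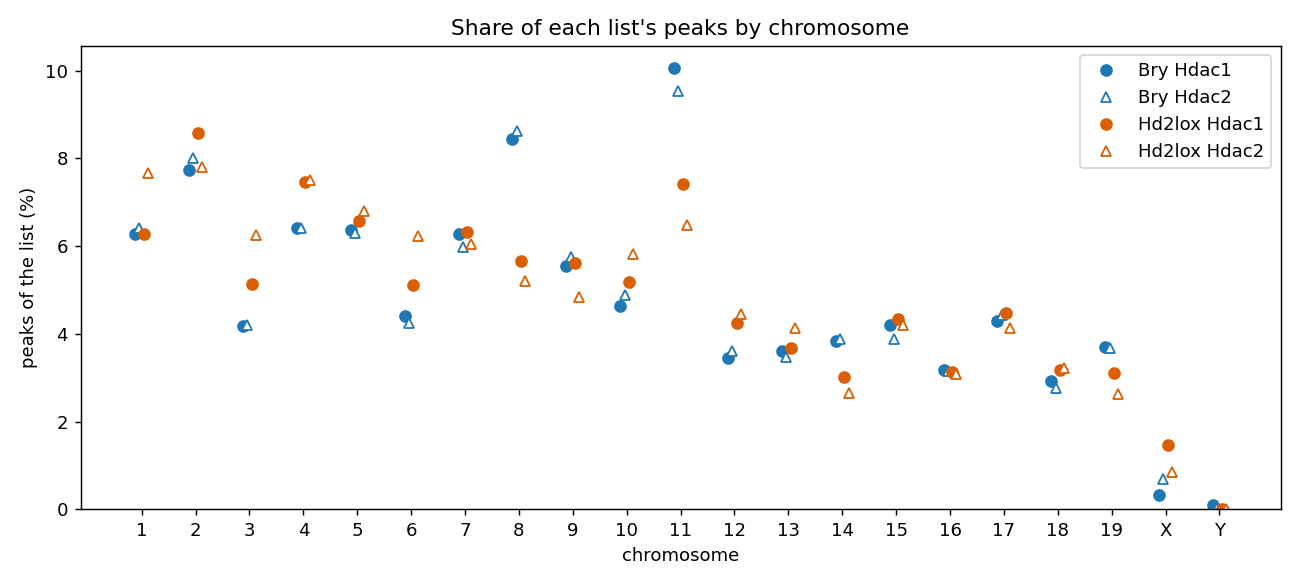
Percentage of each list's peaks (vertical axis) on each chromosome (horizontal axis), blue for Bry and orange for Hd2lox, filled circles for Hdac1 and open triangles for Hdac2. On chromosomes 8 and 11 both blue points lie near 8.43 to 8.63% and 9.54 to 10.1%, above both orange points at 5.21 to 5.65% and 6.47 to 7.42%.

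The X chromosome differed in the other direction and in small numbers. The X chromosome held 25 and 63 Bry peaks against 111 and 77 Hd2lox peaks, and 8 Bry-only and 20 Hd2lox-only regions. Bry-only regions there lay at Rbm3, Mid1ip1, Bcor, Ints6l, Prkx, Efnb1 and Pgk1, a glycolytic enzyme that every cell uses. Hd2lox-only regions lay at or in Sox3, Pcdh19, Iqsec2, Ptchd1 and Cnksr2, which act in the nervous system, and at Xk, Atp2b3 and Zfx among others. Only Med14 lay in a region of all 4 lists. On the Y chromosome the Bry lists held 8 and 3 peaks and both Hd2lox lists 0.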

How the data were processed

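ChIP-seq peak positions of 4 libraries were used, 1 for each of 2 lines and 2 antibodies. Per the submitters' processing notes, the tools were bcl2fastq, Bowtie2 2.2.9, SAMtools 1.3.1 and MACS2 2.1.1.20160309, with mm10 as the build. Its calling settings, and whether inputs served as control, were not given in the sources used here. For each library the authors deposited 1 list with chromosome, start and end only, so no height, score or depth was at hand, and a missing peak means only that none was listed.

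The lists were merged by an overlap of 1 bp with Python 3.11.15, pandas 2.3.3 and scipy 1.17.1, and the merging was tested on simulated data. A gene was counted where a peak lay within 1000 bp of either annotated end of a protein-coding gene (RefSeq, GRCm38.p6), because the start is known for 17492 of 21887 genes only. Starts alone, the fits without chromosomes 8 and 11, every alternative for the ETS letters, their split by CpG content and the families marked as added were chosen after seeing the data. The tests of chromosomes 8, 11 and X and of the number of genes with an end peak were not planned. Members and gene lists were chosen with earlier results of these data known. The text names genes among the 12 highest ranked of each line-specific class (some are not reported here), 2 of the 8 highest ranked in all 4 lists, and list members in those classes, ranked by the lowest width percentile among the lists holding the gene. Other list members were named for their known roles after their values were seen. Printed promoters were to be the 3 highest ranked per class. Those with no peak of both lists over the window, with a peak of the other line or with unread bases were passed over, a departure made after seeing the data. Alternatives were other overlaps, windows, list lengths and widths, and each list left out in turn.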

Additional observations from a re-analysis of the deposited data

Results flagged for a closer look

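The difference between the lines had opposite signs under the 2 antibodies for 2 measures of the peak lists, and these differences were not tested, since there was 1 library a group. Median peak width was lower in Bry than in Hd2lox by 70 bp with the Hdac1 antibody (a difference of -70 bp, 1375 against 1445 bp) and higher by 488 bp with the Hdac2 antibody (1310 against 822 bp). The genome covered by peaks differed by -0.037 Mb with Hdac1 (11.6 Mb in each line, Bry minus Hd2lox) and by 5.34 Mb with Hdac2 (13.3 against 8.01 Mb). Both rest on the narrow peaks of the Hd2lox Hdac2 list.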

How the results depend on the processing

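Counts of line-specific and all-4 regions stayed within 1.5 times of the values given under other overlaps, joining of peaks within 500 bp, no merging and equal list lengths. The gene counts did so under equal list lengths, windows of 500 and 5000 bp, any peak in the gene body and annotated starts only, and the line-specific counts of both without chromosomes 8 and 11. With only peaks at or above each list's median width, the counts fell to 1229 Bry-only, 507 Hd2lox-only and 592 all-4 regions, and to 1298 Bry-only and 547 all-4 genes, as fewer peaks entered. The gene-end share difference was then 3.70 percentage points and the difference in ETS letters 14.8. Leaving out each list in turn gave 2735 to 5011 Bry-only, 1000 to 6596 Hd2lox-only and 1760 to 3326 all-4 regions, and 2507 to 4081 Bry-only, 652 to 939 Hd2lox-only and 1676 to 3250 all-4 genes. The highest of these came without Hd2lox Hdac1 (Bry-only genes and Hd2lox-only regions), without Bry Hdac1 (Bry-only regions) and without Hd2lox Hdac2 (the others), because a line is then represented by 1 list. The gene-end share difference ran from -9.57 to 67.3 percentage points, reversing without Bry Hdac1 (-9.57) and without Bry Hdac2 (-0.36), and the ETS difference from 15.2 to 19.4. With the lists paired by antibody, an exact sign-flip test over the 2 pairs gave p = 0.5, the smallest it can give, for peak number, gene-end share, genes with an end peak and chromosomes 8, 11 and X, and p = 1 for median width and covered length. Chromosomes 8, 11 and X had been picked from all chromosomes by these values, so p gives them no support. Unknown depth limits all counts.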
